A study of Homo sapiens with 24 samples.

Results

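ETS factors are transcription factors that share a winged helix-turn-helix DNA-binding domain, the ETS domain, and bind DNA around a GGAA core. The 10 genes described here were chosen by symbol: FLI1 and ETS1, their relative ETS2, the ternary complex factors ELK1, ELK3 and ELK4, the PEA3 group factors ETV4 and ETV5, and GABPA and ELF1. All 10 were matched among the 29794 genes of the count tables, and all 10 passed the filter on low counts in both batches. FLI1 and ETS1 are best known from endothelial and blood cells. ELK factors bind with serum response factor at immediate early genes and are phosphorylated by ERK, ETV4 and ETV5 are induced downstream of ERK signalling, and GABPA is the DNA-binding subunit of GABP, a regulator of nuclear genes for mitochondrial proteins.

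Expression was measured in 24 polyA+ libraries from the Flp-In T-REx 293 line, a derivative of the human embryonic kidney line HEK293. The cells were transduced with a lentiviral vector in which a doxycycline-inducible GFP reporter carried a miRNA hairpin in its intron, and control cells carried the vector without a hairpin (empty vector). All cells, controls included, went through 6 days of geneticin selection (1 mg/mL), after which the geneticin dose was lowered. They also went through 7 days of induction with 1 µg/mL doxycycline. Batch 1 held 2 libraries each of empty vector, miR-1 and miR-122 cells, and batch 2 held 3 libraries each of cells with the empty vector, miR-133a or miR-155 and of cells with miR-302a, miR-372 or miR-373. The question was which of these mRNAs differed between cells with a miRNA and the empty vector cells of the same batch.

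Each library held 20153452 to 21595191 counted reads in batch 1 and 13047400 to 35040778 in batch 2. Of the markers of the HEK293 line, PAX2, KRT8, KRT18 and NEFM had a median above 1 CPM (read counts scaled to a common library size), and their summed level was 266 to 426 CPM. Among the genes that mark endothelial, haematopoietic and skeletal muscle cells, 0 of 5, 0 of 6 and 0 of 5 had a median above 1 CPM, and their sums reached at most 1.98, 1.93 and 3.04 CPM. LHX1, also chosen as a HEK293 marker, and PECAM1, also chosen as an endothelial marker, were not matched by symbol and were left out. Replicates were separately transduced and kept cultures of this 1 cell line, per the study's methods, so p-values measure the spread between such cultures. In bulk libraries a change in every cell and a larger change in some cells cannot be told apart.

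The expressed miRNAs are shown with their seed, bases 2 to 8, in capitals, because the seed decides which sites in the members' 3'UTRs can pair. They are the mature sequences in RefSeq for GRCh38.p14.
miR-1: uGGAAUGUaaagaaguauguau
miR-122: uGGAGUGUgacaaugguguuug
miR-133a: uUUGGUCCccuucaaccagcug
miR-155: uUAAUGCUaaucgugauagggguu
miR-302a: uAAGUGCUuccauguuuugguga
miR-372: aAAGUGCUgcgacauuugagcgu
miR-373: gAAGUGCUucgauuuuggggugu
The last 3 share 1 seed and differ elsewhere (below, the miR-302a-seed miRNAs), whereas the other miRNAs each have a seed of their own.

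The longest annotated 3'UTR of each gene (GENCODE lifted to GRCh37) was searched on the transcript strand for 3 kinds of seed match. Coding sequences and 5'UTRs were not searched. An 8mer pairs with bases 2 to 8 and has an A opposite base 1, a 7mer-m8 pairs with bases 2 to 8 only, and a 7mer-A1 pairs with bases 2 to 7 and has the A. Shorter matches inside an 8mer were not counted again. The 8mers searched were ACATTCCA (miR-1), ACACTCCA (miR-122), GGACCAAA (miR-133a), AGCATTAA (miR-155) and AGCACTTA (miR-302a seed), and the 7mers are these without their last or first base. At least 1 match was found in 4 members each with the seeds of miR-1, miR-122 and miR-155, and in 1 member each with those of miR-133a and miR-302a. Among tested genes with an annotated 3'UTR, the shares with a match were 24.1%, 25.7%, 19.2%, 17.1% and 30.1% in that order.

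The matches on which the results below turn are printed with up to 11 bases on each side and the match in capitals. All are in the 3'UTR exon of the gene named, and a match is a description of the letters, not a measured site.
FLI1, miR-133a 8mer, chr11:128681347-128681354, plus strand: taattttaggaGGACCAAAttcagtggatg
FLI1, miR-133a 7mer-A1, chr11:128681220-128681226, plus strand: tatgtttttatGACCAAAgcagtttcttg
FLI1, miR-1 7mer-m8, chr11:128681554-128681560, plus strand: tgcaaatacatACATTCCtgaaagacggg
ETS1, miR-1 8mer, chr11:128329145-128329152, minus strand: aactcttacctACATTCCAaagaagtttca
ETS1, first miR-155 8mer, chr11:128331329-128331336, minus strand: ttgagctaagaAGCATTAAgtctttgaact
ETS1, second miR-155 8mer, chr11:128329257-128329264, minus strand: ctgggttttacAGCATTAAcctgcctaacc
ELK3, first miR-155 7mer-A1, chr12:96661160-96661166, plus strand: aaatctgtttgGCATTAAgtgaattttaa
ELK3, second miR-155 7mer-A1, chr12:96662452-96662458, plus strand: atccaaactggGCATTAAgtggcaggatt
ELK4, miR-302a seed 8mer, chr1:205579134-205579141, minus strand: taataactggaAGCACTTAatgattatttt
No match of miR-155 or of the miR-302a seed lay in the FLI1 3'UTR, and none of miR-133a or of the miR-302a seed lay in that of ETS1. The 3'UTRs of ETV4 and ETS2 had no match of any of these seeds. ETS1 has 5 annotated 3'UTRs, and its miR-1 match is in 3 of them and its miR-155 matches in 4 and 3. The FLI1 matches printed are in all 5 of its annotated 3'UTRs. ELK3 has 2, with its first miR-155 match in 2 and its second in 1. ELK4 and ELF1 also have 2 each, and the ELK4 match printed and the miR-1 and miR-155 matches of ELF1 are in 1 of them. Which 3'UTRs these cells use was not tested here.

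In empty vector cells of batch 2, the levels of the members per length, as RPKM (CPM divided by exon length in kilobases), fell from ELK1 to FLI1. ELK1 stood at 23.96 ± 1.92 RPKM (SD, n = 3), GABPA at 19.6 ± 1.42, ETS2 at 16.3 ± 0.692, ELF1 at 9.95 ± 0.621, ELK3 at 8.49 ± 0.833 and ELK4 at 6.10 ± 0.595. ETV4 stood at 4.79 ± 0.466 RPKM, ETV5 at 3.47 ± 0.603, ETS1 at 2.82 ± 0.233 and FLI1 at 1.85 ± 0.0637. ELK1 and GABPA are thus the members with the highest mRNA level in these cells, and FLI1 had the lowest. Library values of the neighbours ELF1 and ELK3 overlapped neither in batch 1 nor in batch 2, whereas those of ETV5 and ETS1 overlapped in batch 2, the only neighbours that did in that batch.

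**Figure D1:**
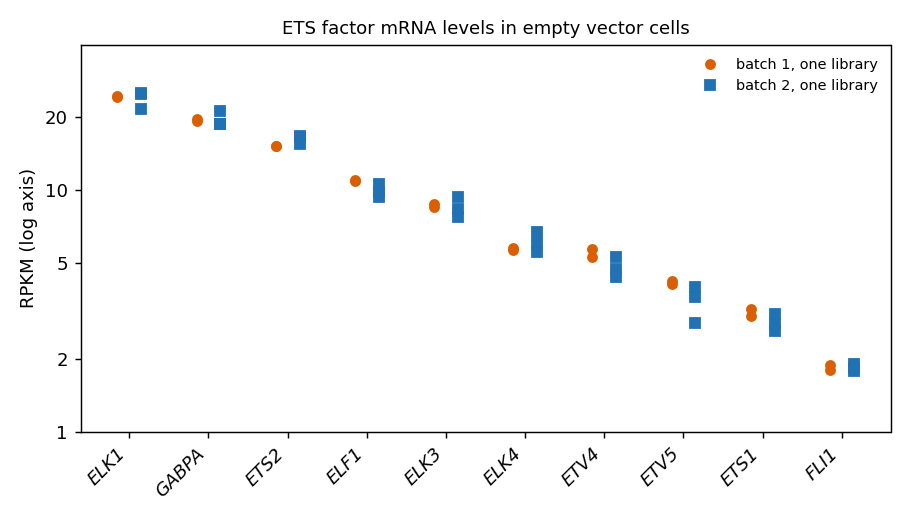
mRNA levels of the 10 ETS factors in empty vector cells, in RPKM on a log axis, with 1 point per library for batch 1 (2 libraries, circles) and batch 2 (3 libraries, squares). The factors are ordered by their batch 2 mean, from ELK1 at 23.96 to FLI1 at 1.85 RPKM.

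A member was called changed when the adjusted p of edgeR's quasi-likelihood test (Benjamini-Hochberg over all genes tested) was under 0.05. Lower than in empty vector cells were 2 members with miR-1, 0 with miR-122, 1 with miR-133a, 2 with miR-155, 1 with miR-302a, 2 with miR-372 and 0 with miR-373, of 10 tested in each. Of all genes tested, 13.7%, 4.06%, 3.97%, 4.81%, 4.85%, 6.56% and 3.3% were called lower in the same comparisons. Higher were 0 members with miR-1, 2 with miR-122, 0 with miR-133a, 0 with miR-155, and 2 each with miR-302a, miR-372 and miR-373, against 10.8%, 1.86%, 1.37%, 2.82%, 3.02%, 4.82% and 1.83% of all genes tested. At an unadjusted p under 0.05 the members numbered 3, 5, 2, 2, 5, 4 and 4 in either direction, where 36.1%, 19.7%, 20.4%, 23.8%, 23.2%, 26.7% and 17.7% of all genes tested did. The members' shares with miR-1, miR-133a and miR-155 were thus no higher than these. The median log2 fold change of the 10 members lay between -0.08 and 0.11 in the 7 comparisons, and that of all genes tested between -0.000995 and 0.00568. The 5 miRNAs of batch 2 were compared with the same 3 empty vector libraries, and miR-1 and miR-122 with the same 2.

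**Figure D2:**
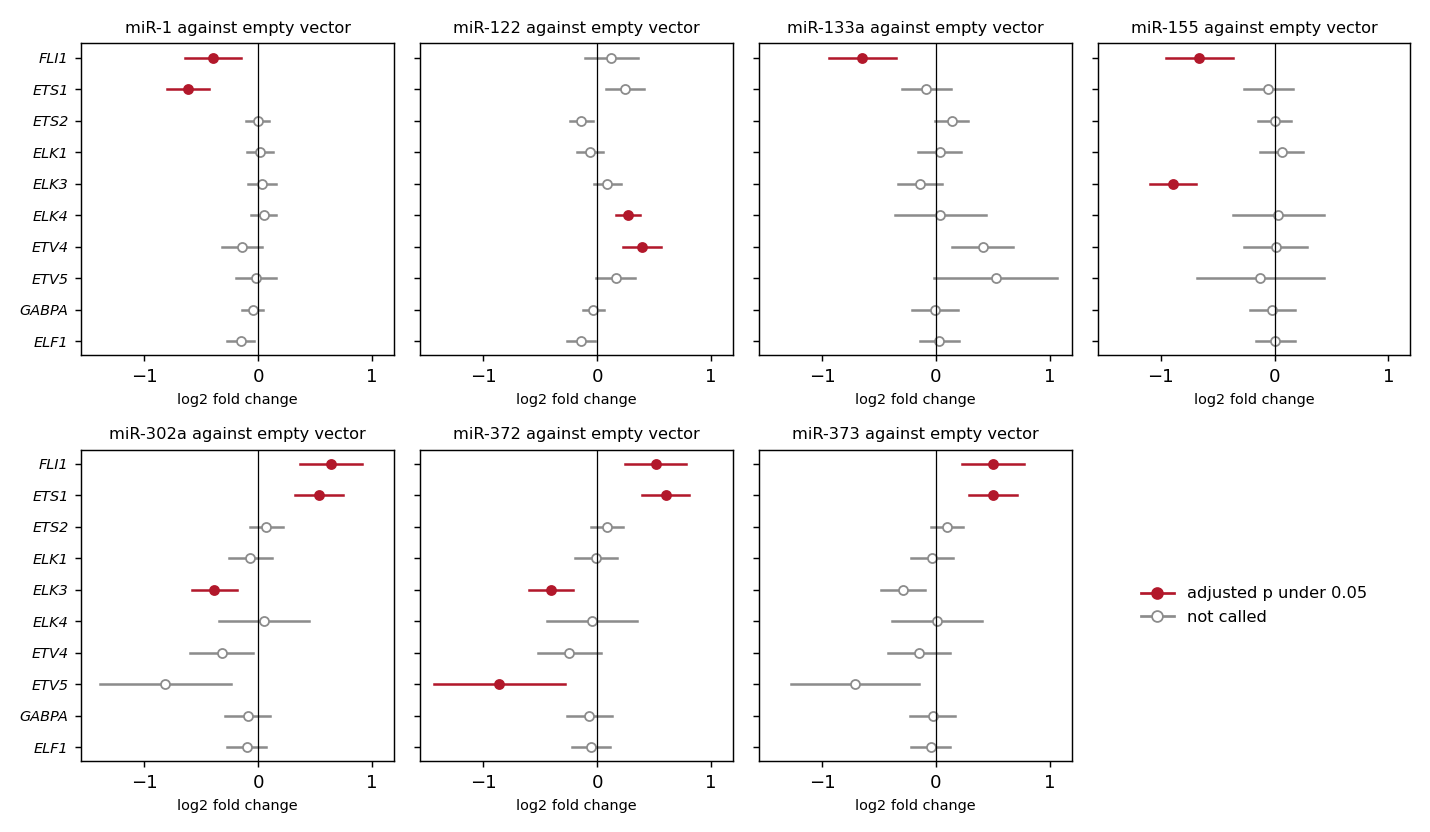
Log2 fold change of each ETS factor for each miRNA against the empty vector of its batch, with 95% confidence intervals from the edgeR quasi-likelihood fit. Filled red points passed an adjusted p of 0.05. FLI1 is called in 6 of the 7 panels, left of zero for miR-1, miR-133a and miR-155 and right of it for the miR-302a-seed miRNAs.

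FLI1, an ETS factor of endothelial and megakaryocyte development, was called lower with 3 miRNAs and higher with 3 others. Its gene (ENSG00000151702.12) lies at chr11:128556430-128683162 on the plus strand, next to ETS1 (ENSG00000134954.10) at chr11:128328656-128457453 on the minus strand. The pair is 98976 bases apart with 0 protein-coding genes between them. FLI1 measured 9.30, 8.70 and 8.88 CPM in empty vector cells of batch 2. The miR-133a libraries, in which both the 8mer and the 7mer-A1 match printed above can pair, measured 5.47, 6.13 and 5.56 CPM. All 3 lay below every control library, a log2 fold change of -0.65 (SE 0.141, adjusted p = 0.00847). The paper already names FLI1 a direct target of miR-133a, from the RNA-seq of these cells combined with PRO-seq. FLI1 was chosen with that result known. Its value with miR-133a thus describes the same RNA-seq libraries again and is not a separate test.

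FLI1 was also lower with miR-155, for which its 3'UTR has no seed match, at 6.52, 4.28 and 6.09 CPM. The log2 fold change was -0.66 (SE 0.141, adjusted p = 0.00615), and replicate 2 was the lowest of all FLI1 values. Without that library the value was -0.50, and the call remained (adjusted p = 0.0415). The difference between miR-133a and miR-155 was 0.02 on the log2 scale, with a 95% interval from -0.29 to 0.32 and an adjusted p of 0.961.

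In batch 1, FLI1 measured 9.14 and 8.74 CPM in empty vector cells and 7.09 and 6.46 CPM with miR-1, whose 7mer-m8 match is printed above. Both miR-1 libraries were below both controls, with a log2 fold change of -0.40 (SE 0.118, adjusted p = 0.0189). This call rested on every library but 1: it was lost without empty vector replicate 1, miR-1 replicate 1 or miR-1 replicate 2 (log2 fold changes -0.33 to -0.46 over all that were left out, adjusted p up to 0.155). DESeq2 did not call it either (adjusted p = 0.147). With miR-122, for which FLI1 has a 7mer-A1 match, the libraries measured 9.41 and 10.11 CPM, and the log2 fold change was 0.13 (95% interval -0.10 to 0.36, adjusted p = 0.58).

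With the miRNAs of the miR-302a seed FLI1 was higher, and its 3'UTR holds no match to that seed. The libraries measured 14.03, 12.54 and 15.48 CPM with miR-302a, 12.37, 12.76 and 13.22 CPM with miR-372, and 11.73, 13.24 and 13.01 CPM with miR-373. All 9 values lay above the 3 control values. The log2 fold changes were 0.64 (SE 0.130, adjusted p = 0.00433), 0.52 (SE 0.130, adjusted p = 0.0145) and 0.50 (SE 0.129, adjusted p = 0.0269), respectively. The miR-302a call remained without any 1 library. The miR-372 call was lost without empty vector replicate 2 (adjusted p = 0.0565), and the miR-373 call without any of the 3 empty vector libraries or without miR-373 replicate 2 or 3 (adjusted p up to 0.0993), while the log2 fold change with miR-373 stayed between 0.47 and 0.55.

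ETS1, the founding member of the family, was called lower with miR-1 and higher with the miRNAs of the miR-302a seed. In batch 1 it measured 19.19 and 17.96 CPM in empty vector cells and 12.74 and 11.43 CPM with miR-1, whose 8mer match is printed above. The miR-1 libraries lay below both controls, with a log2 fold change of -0.62 (SE 0.0894, adjusted p = 4.98e-05), and the call remained without each of the 4 libraries. With miR-122 both libraries, at 21.97 and 22.07 CPM, lay above the controls, but the log2 fold change of 0.25 did not pass (95% interval 0.08 to 0.41, adjusted p = 0.083).

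ETS1 carries a pair of 8mer matches to miR-155, and its mRNA was not called changed with that miRNA. It measured 16.65, 15.49 and 18.25 CPM in empty vector cells of batch 2 and 17.22, 14.76 and 16.43 CPM with miR-155. The groups overlapped, and the log2 fold change was -0.06 with a 95% interval from -0.27 to 0.16 (adjusted p = 0.782). With miR-133a, which has no match in the ETS1 3'UTR, the values were 15.13, 16.64 and 15.80 CPM and the log2 fold change -0.08 (95% interval -0.30 to 0.13).

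With the miR-302a seed ETS1 was higher, again with no match to that seed in its 3'UTR. It measured 22.88, 27.26 and 22.73 CPM with miR-302a, 24.49, 25.29 and 26.72 CPM with miR-372, and 22.92, 25.64 and 22.91 CPM with miR-373. All 9 libraries were above the controls. The log2 fold changes were 0.54 (SE 0.100, adjusted p = 0.0022), 0.60 (SE 0.0993, adjusted p = 0.000581) and 0.50 (SE 0.0992, adjusted p = 0.00451), and all 3 calls remained without any 1 library.

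**Figure D3:**
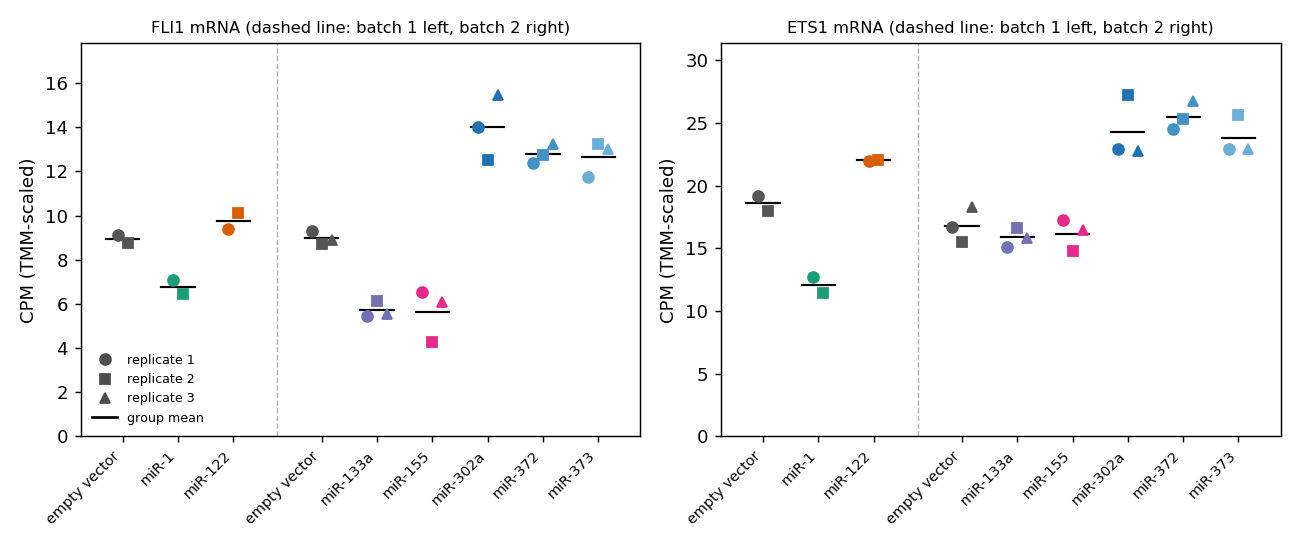
FLI1 (left panel) and ETS1 (right panel) mRNA in every library, in CPM from TMM-scaled library sizes, by group; each symbol is 1 library, its shape gives the replicate number, and bars are group means. With the miR-302a-seed miRNAs both genes lie above the empty vector of batch 2, whereas with miR-133a and miR-155 FLI1 lies below it and ETS1 overlaps it.

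Across the 18 libraries of batch 2 the Pearson correlation of log2 CPM between FLI1 and ETS1 was 0.89, a description only, since libraries of 1 group share their miRNA. The genes most like FLI1 by this measure, among 12153 compared, were COL2A1 (0.977), PPM1H (0.950) and TERT (0.947). Those most like ETS1 were TMEM150A (0.977), SYT2 (0.948) and ARID3B (0.948).

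Among the ternary complex factors, ELK3, which can repress serum response factor targets, was the only one called with a miRNA of batch 2. It measured 42.76, 38.02 and 35.25 CPM in empty vector cells and 20.88, 19.65 and 21.88 CPM with miR-155, for which it has the pair of 7mer-A1 matches printed above. All miR-155 libraries lay below all controls. The log2 fold change was -0.89 (SE 0.0966, adjusted p = 7.16e-06), or 0.538 of the control level, and the call remained without each of the 6 libraries.

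ELK3 was also lower with miR-302a and miR-372, and its 3'UTR has no match to their seed. ELK3 measured 30.03, 29.27 and 29.44 CPM with miR-302a, 27.47, 28.89 and 31.15 CPM with miR-372, and 33.88, 30.94 and 30.38 CPM with miR-373. Every one of these libraries lay below the 3 controls. The log2 fold changes were -0.39 (SE 0.0941, adjusted p = 0.0149) and -0.40 (SE 0.0936, adjusted p = 0.00855) for miR-302a and miR-372, and -0.29 (SE 0.0929, adjusted p = 0.0832) for miR-373, which did not pass. Empty vector replicate 1 was the highest control for ELK3, and without it neither call passed (log2 fold changes -0.31 and -0.33, adjusted p = 0.088 and 0.0578). The miR-302a call was also lost without its replicate 1 or 3, and the miR-372 call without its replicate 1.

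ELK3 has an 8mer match to miR-122 at chr12:96662206-96662213, in 1 of its 2 annotated 3'UTRs. With miR-122 ELK3 measured 42.31 and 41.47 CPM, against 38.77 and 39.84 CPM in empty vector cells of batch 1. The log2 fold change was 0.09 (95% interval -0.03 to 0.21, adjusted p = 0.405). With miR-1 and miR-133a it was 0.03 and -0.14 (adjusted p = 0.711 and 0.432).

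ELK4, another ternary complex factor, has the longest 3'UTR of the members, 8606 bases, with an 8mer and a pair of 7mer-m8 matches to the miR-302a seed. Each of these matches is in 1 of its 2 annotated 3'UTRs. ELK4 measured 73.59, 66.03 and 60.63 CPM in empty vector cells of batch 2, and 75.79, 51.27 and 80.93 CPM with miR-302a. The values were 74.04, 42.83 and 76.11 CPM with miR-372 and 70.77, 54.41 and 76.20 CPM with miR-373. The groups overlapped in each case. The log2 fold changes were 0.05, -0.05 and 0.01, with 95% intervals from -0.35 to 0.45, from -0.44 to 0.35 and from -0.39 to 0.41. Replicate 2 was the lowest library in each of these 3 groups and with miR-155. ELK4 also has a 7mer-A1 match to miR-155, and measured 70.13, 56.13 and 78.47 CPM with that miRNA. The log2 fold change was 0.03 (95% interval -0.37 to 0.43, adjusted p = 0.941).

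In batch 1 ELK4 was higher with miR-122, at 73.59 and 77.32 CPM against 62.98 and 62.09 CPM. The log2 fold change was 0.27 (SE 0.0515, adjusted p = 0.0021), and it was 0.24 with an adjusted p of 0.0651 without miR-122 replicate 2. ELK4 shares its locus with MFSD4A on the opposite strand, which was measured at 2.98 to 7.35 CPM, and reads were counted by strand.

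ELK1, the classic ternary complex factor, was called in none of the 7 comparisons, although it has a pair of 7mer-A1 matches to miR-122. Its log2 fold changes lay between -0.07 and 0.06. With miR-122 it measured 68.76 and 67.12 CPM against 70.53 and 71.50 CPM, a log2 fold change of -0.06 (95% interval -0.18 to 0.05, adjusted p = 0.569).

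ETV4 and ETV5 are PEA3 group factors that act in branching organs and are themselves degraded through DET1 and COP1. ETV4 was higher with miR-122, at 22.76 and 22.12 CPM against 17.64 and 16.40 CPM in empty vector cells. Both libraries were above both controls, with a log2 fold change of 0.40 (SE 0.0797, adjusted p = 0.00343); without miR-122 replicate 1 it was 0.38 with an adjusted p of 0.0614. With miR-133a it measured 17.01, 19.19 and 22.92 CPM against 13.50, 14.63 and 16.36 CPM, all above the controls. This log2 fold change, 0.41 (SE 0.130), did not pass (adjusted p = 0.0721), and DESeq2 called it (adjusted p = 0.0474). The other log2 fold changes of ETV4 lay between -0.32 with miR-302a and 0.01 with miR-155, and none passed.

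ETV5 had the largest standard errors of the members in batch 2, from 0.259 with miR-133a to 0.275 with miR-302a against empty vector. In batch 2 it measured 12.90, 16.61 and 18.32 CPM in empty vector cells, 6.11, 13.15 and 7.55 CPM with miR-302a, 5.51, 13.23 and 8.12 CPM with miR-372, and 7.87, 12.28 and 9.16 CPM with miR-373. Replicate 2 was the highest of each miRNA group of this seed, and with miR-302a and miR-372 it overlapped the lowest control. The log2 fold change with miR-372 was -0.86 (SE 0.274, adjusted p = 0.0489), and the call was lost without any of the 3 empty vector libraries or without miR-372 replicate 1 or 3 (adjusted p up to 0.198). With miR-302a it was -0.82 (adjusted p = 0.0756) and with miR-373 -0.71 (adjusted p = 0.154), neither called. DESeq2 called the miR-302a value (adjusted p = 0.0374).

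With miR-133a ETV5 measured 20.83, 23.86 and 24.28 CPM, all above the controls, and the log2 fold change of 0.53 (95% interval -0.02 to 1.07) did not pass (adjusted p = 0.261). With miR-155 it measured 11.74, 18.35 and 13.95 CPM, and the groups overlapped. In batch 1 ETV5 measured 19.90 and 22.74 CPM with miR-122, for which it has a 7mer-A1 match, against 18.80 and 19.28 CPM. The log2 fold change was 0.16 (adjusted p = 0.279), and with miR-1 it was -0.02 (adjusted p = 0.881). The gene DGKG overlaps ETV5 on the same strand and was measured at 0 to 0.709 CPM.

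**Figure D4:**
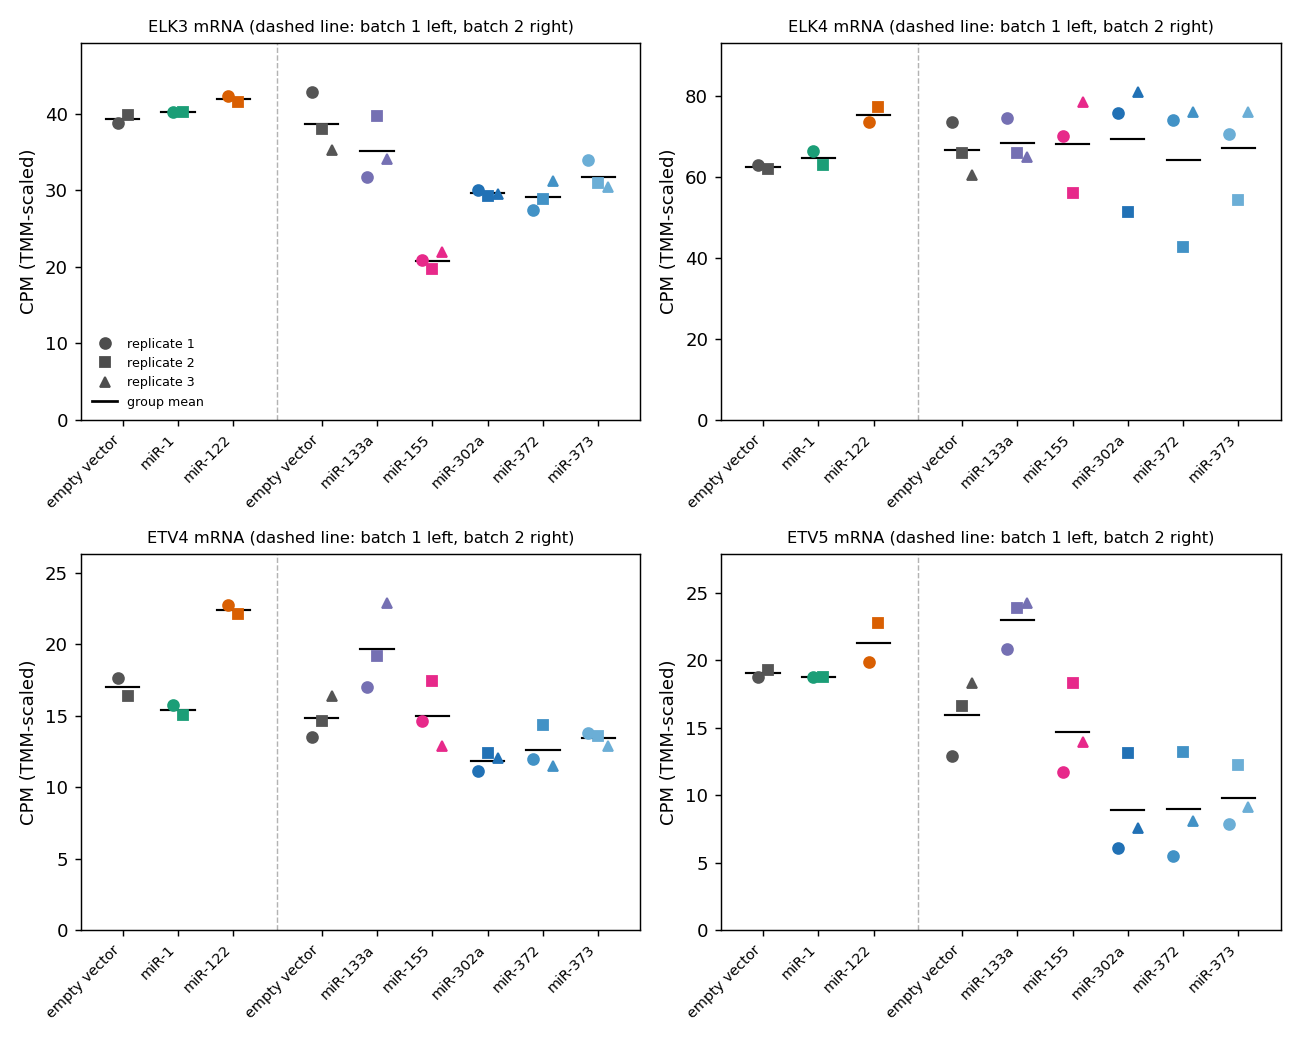
ELK3, ELK4, ETV4 and ETV5 mRNA in every library, in CPM from TMM-scaled library sizes, by group; symbol shape gives the replicate number and bars are group means. ELK3 with miR-155 lies near 20 CPM, below all other ELK3 libraries, and replicate 2 (squares) stands low for ELK4 and high for ETV5 with miR-155 and the miR-302a-seed miRNAs.

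The replicate 2 libraries of miR-155 and the miR-302a-seed miRNAs moved together for ELK4 and ETV5, and across all genes the deviations of same-numbered replicate 2 libraries of these groups from their group means correlated at 0.191 to 0.614. With those 4 libraries left out together, which was decided once these values were known, the log2 fold changes of FLI1 against empty vector were -0.64 with miR-133a, -0.50 with miR-155 and 0.72, 0.52 and 0.48 in the miR-302a-seed groups (miR-302a, then miR-372, then miR-373), all called, and those of ETS1 with the miR-302a seed 0.44, 0.61 and 0.45, all called. ELK4 and ETV5 had chosen the libraries, so nothing is read from their values there, nor from a count of members that includes them.

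ETS2, GABPA and ELF1 were called in none of the 7 comparisons with the empty vector. GABPA, the member with the highest CPM, ranged from 89.1 to 113 CPM over all libraries, and its log2 fold changes lay between -0.09 and -0.01. With miR-1, for which it has a 7mer-m8 match, it was -0.05 (95% interval -0.14 to 0.04, adjusted p = 0.462). ETS2 lay between -0.14 with miR-122 and 0.14 with miR-133a (adjusted p = 0.113 and 0.258).

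ELF1, a factor of the ELF branch with a 7mer-A1 match to miR-1, measured 43.35 and 41.06 CPM with miR-1 against 46.69 and 47.35 CPM. Both libraries were below the controls, and the log2 fold change of -0.16 (SE 0.0583) did not pass (adjusted p = 0.0575); edgeR's likelihood ratio test called it (adjusted p = 0.0476). With miR-155, for which it has a 7mer-m8 match, ELF1 measured 42.67, 42.98 and 42.92 CPM against 42.16, 45.47 and 40.21 CPM, a log2 fold change of 0.01 (95% interval -0.16 to 0.18). Pseudogenes are annotated for ETS2, ELK1 and GABPA (1 each). The authors' counting dropped reads under a mapping quality limit, so reads that fit gene and pseudogene alike may be missing. How many were lost was not tested. GABPA overlaps ATP5PF, and ETV4 overlaps DHX8, each on the opposite strand.

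Comparisons between miRNAs of 1 batch ask whether their effects on a member differ, without the shared control libraries. Between miR-1 and miR-122, 5 of 10 members were called, where 31.2% of all genes tested were. ETS1 was lower with miR-1 by a log2 difference of -0.86 (SE 0.0871, adjusted p = 3.48e-07), FLI1 by -0.52 (SE 0.116, adjusted p = 0.00191), ETV4 by -0.54 (SE 0.081, adjusted p = 4.39e-05) and ELK4 by -0.22 (SE 0.0512, adjusted p = 0.00272). ETS2 was higher with miR-1 by 0.13 (SE 0.049, adjusted p = 0.0435). The ETS2 call was lost without any of the 4 libraries, and that of ELK4 without miR-1 replicate 2 or miR-122 replicate 2, whereas the calls of ETS1, FLI1 and ETV4 remained.

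Between miR-133a and miR-155, 2 of 10 members were called, against 16.7% of all genes tested. ELK3 was higher with miR-133a by 0.75 (SE 0.097, adjusted p = 1.95e-05), without overlap. ETV4 was higher by 0.40 (SE 0.130, adjusted p = 0.0404), with overlapping libraries, and this call was lost without miR-133a replicate 2 or 3 or miR-155 replicate 1 or 3. ETV5 was higher by 0.65 without passing (adjusted p = 0.0974), and with the replicate number as a block the difference was 0.67 and was called (adjusted p = 0.0053), which made 3 members.

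Cells with miR-133a and miR-155 were also compared with the mean of the 3 miR-302a-seed groups. For miR-133a, 5 of 10 members were called (20.5% of all genes tested), and for miR-155, 4 of 10 (27.1%). FLI1 was lower by -1.20 (SE 0.118, adjusted p = 4.48e-07) and -1.22 (SE 0.117, adjusted p = 3.71e-07), and ETS1 by -0.63 (SE 0.0847, adjusted p = 2.32e-05) and -0.60 (SE 0.0843, adjusted p = 2.81e-05), in both cases with no overlap. ELK3 was higher with miR-133a by 0.22 (adjusted p = 0.0459, overlapping) and lower with miR-155 by -0.53 (adjusted p = 7.39e-05). ETV4 was higher with miR-133a by 0.65 (SE 0.103, adjusted p = 0.000145), and ETV5 by 1.32 (SE 0.206, adjusted p = 0.000118), both without overlap. ETV5 was higher with miR-155 by 0.67 (adjusted p = 0.0281), with overlapping libraries.

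The smaller of these differences rested on single libraries. The ELK3 value with miR-133a was not called without any 1 of 8 libraries among the 12 (as low as 0.12, adjusted p = 0.382, without miR-133a replicate 2). The ETV5 value with miR-155 was not called without miR-155 replicate 2 or 3 (0.47 and 0.70, adjusted p = 0.19 and 0.0586). The other 7 of these calls remained without each library in turn.

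**Figure D5:**
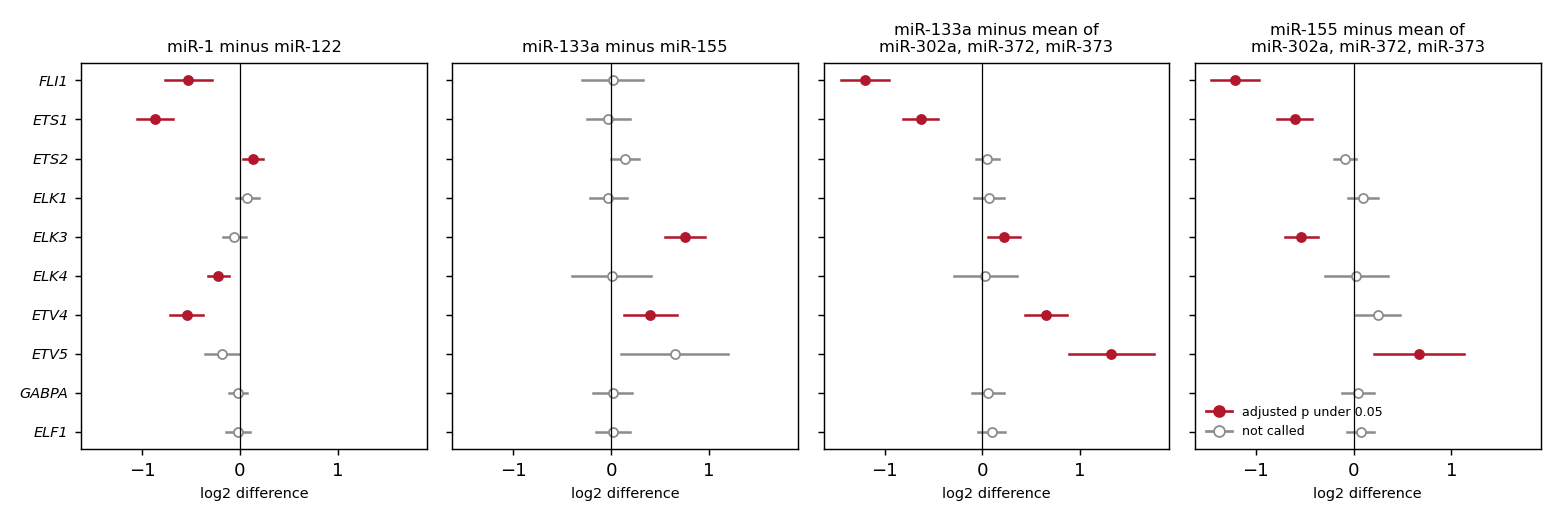
Log2 difference of each ETS factor between miRNAs of the same batch, with 95% confidence intervals from the edgeR quasi-likelihood fit. Filled red points passed an adjusted p of 0.05. FLI1 lies at -1.20 and -1.22 for miR-133a and miR-155 against the mean of the miR-302a-seed groups, and ETV5 lies at 1.32 for miR-133a.

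Within the miR-302a-seed miRNAs, edgeR called 0 of 10 members in each of the 3 pairs, and 0 of 10 had an unadjusted p under 0.05. DESeq2 and edgeR's likelihood ratio test also called 0 members. Of all genes tested, 0% were called in each pair, with at most 184 at an unadjusted p under 0.05, 0, 3 and 1 called by DESeq2 and 1, 3 and 1 by the likelihood ratio test. Those at an unadjusted p under 0.05 were 0.868%, 1.31% and 1.11% of all genes tested. A share of 0.05 would be reached with no differences at all, so edgeR's test was strict in these pairs. Why was not tested, and 0 calls do not show that these miRNAs act alike. The 95% intervals of the difference come from the same fit and give the size of difference that could have been missed. For FLI1 they ran from -0.13 to 0.39 between miR-302a and miR-372, from -0.12 to 0.40 between miR-302a and miR-373, and from -0.25 to 0.27 between miR-372 and miR-373. For ETS1 they ran from -0.27 to 0.13, from -0.17 to 0.23 and from -0.10 to 0.30. For ETV5 the intervals were the widest, from -0.73 to 0.63 over the 3 pairs.

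Other genes of the ETS system were counted from lists. In either direction, 24.5%, 5.92%, 5.34%, 7.63%, 7.88%, 11.4% and 5.13% of all genes tested were called in the 7 comparisons with the empty vector (in the order used above, from miR-1 to miR-373), and the counts below stand against these shares. Of 18 further ETS family genes 8 were tested; ETV3, a repressor, was lower with miR-155 (-0.42, adjusted p = 0.0191) and ERF, another repressor, was higher (0.24, adjusted p = 0.0478). With the other 6 miRNAs edgeR's quasi-likelihood test called 0 of 8, with 0 to 2 at an unadjusted p under 0.05, 0 by DESeq2 and at most 1 by the likelihood ratio test. The median log2 fold change of these 8 genes lay between -0.12 and 0.02. The number called with miR-155 was 0 or 1 without any 1 of its 6 libraries.

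Of 8 partners and regulators, all tested, 2 were called with miR-1, 3 with miR-122 and 1 with each of the other miRNAs. The 2 of 8 with miR-1 are about the share of all genes. GABPB2, which encodes a partner subunit of GABPA, was lower with miR-1 (-0.51), miR-133a (-0.63), miR-302a (-0.49), miR-372 (-0.47) and miR-373 (-0.35), while GABPA was called with none. DET1, part of the ubiquitin ligase that acts on ETV4 and ETV5, was lower with miR-155 (-1.19, adjusted p = 1.22e-05). SRF, the partner of the ternary complex factors, was higher with miR-1 (0.27) and lower with miR-122 (-0.24), and CREBBP, a coactivator, was lower with miR-122 (-0.26). The list's median log2 fold change lay between -0.15 with miR-122 and 0.06 with miR-1.

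Of 16 genes of the RAS-RAF-MEK-ERK cascade, which phosphorylates ELK factors, 4, 0, 1, 3, 0, 1 and 0 were called in the 7 comparisons, and the 4 of 16 with miR-1 are about the share of all genes. For the 3 comparisons at 0 (miR-122, miR-302a and miR-373), 2, 5 and 3 genes had an unadjusted p under 0.05, and DESeq2 called 0, 2 and 0 and the likelihood ratio test 0, 1 and 0. BRAF, a MEK kinase, was lower with miR-1 (-0.39) and miR-133a (-0.43), and RPS6KA3, a kinase activated by ERK, with miR-155 (-0.56) and miR-372 (-0.31). MAP2K1 was higher with miR-1 (0.16) and MAP2K2 with miR-155 (0.33). The list's median log2 fold change lay between -0.01 with miR-122 and 0.10 with miR-372.

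Of 20 transcripts known to respond to ERK, 5, 3, 1, 2, 1, 2 and 1 were called by edgeR, against 1, 0, 1, 4, 1, 2 and 1 by DESeq2. The 5 of 20 with miR-1 are again about the share of all genes. DUSP5, an ERK phosphatase, was higher with miR-122 (0.31), miR-302a (0.89), miR-372 (1.14) and miR-373 (0.92). SPRY4, an inhibitor of the pathway, was lower with miR-1 (-0.53), where JUNB was higher (0.23), and EGR1, an immediate early gene, was lower with miR-372 (-0.59). With miR-155 CCND1, which encodes cyclin D1, was lower (-0.76) and IER3 higher (0.52), and DUSP4 was higher with miR-133a (0.35).

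Of 10 nuclear genes for mitochondrial proteins with GABP sites, 1 was called with miR-1 (POLRMT, the mitochondrial RNA polymerase, 0.23), 1 with miR-122 (TFAM, a mitochondrial transcription factor, -0.15) and 1 with miR-155 (SDHB, a subunit of succinate dehydrogenase, 0.51). DESeq2 called 1 with miR-1, 0 with miR-122 and 1 with miR-155, and the likelihood ratio test called 1 with each. With miR-133a, miR-302a, miR-372 and miR-373 edgeR called 0, with 3, 4, 6 and 0 at an unadjusted p under 0.05; DESeq2 and the likelihood ratio test each called 1 with miR-372 and 0 with the other 3. The list's median log2 fold change lay between 0.01 with miR-122 and 0.25 with miR-372.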

How the data were processed

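The authors trimmed adapters, aligned reads to hg19 with TopHat2 2.1.1, assigned reads to exons by strand with featureCounts, keeping those above a mapping quality limit, and deposited unnormalized counts per gene for each batch. Their tables of comparisons (edgeR fold changes and p-values) were not used, and 0 per-sample columns were left out. Library totals ranged from 13047400 to 35040778; no pair of replicates was alike within sampling noise (chi-square per degree of freedom 1.79 to 33.6).

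Counts were filtered with filterByExpr (minimum count 10), scaled by TMM and tested with edgeR 4.0.16 (R 4.3.3), with all groups of a batch in 1 quasi-likelihood fit and Benjamini-Hochberg adjustment over the 14348 (batch 1) and 14054 (batch 2) genes tested. CPM used TMM-scaled library sizes, and RPKM divided CPM by the deposited exon length. Standard errors were taken from the F statistic (the size of the log2 fold change divided by its root), and intervals were 95%. Scripts were tested on simulated data. DESeq2 1.42.0, edgeR's likelihood ratio test, other filters, fits of only the groups compared, a replicate block and leaving out libraries were alternatives. Symbols were matched for 28543 of 29794 genes.

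The members, lists and tests were chosen with earlier results of these data known. All members are named, and from each list only the called genes with the lowest and highest log2 fold change in a comparison. The 3 genes with the highest Pearson correlation to FLI1 and to ETS1 are named. The labels give no shared litter, batch or day for replicate numbers. Deviations of same-numbered libraries from their group means correlated above 0.1 in all 3 pairs for miR-133a with miR-155 (0.183, 0.345 and 0.198). They did so for miR-302a with miR-372 as well (0.227, 0.336 and 0.161). The 3 correlations of such a pair of groups are not independent, since deviations from a group mean cancel within the group. The main values of these comparisons are from the fit without a replicate block, and the block was an alternative. Correlations above 0.1 in all 3 pairs were also found for miR-155 with miR-302a (0.131, 0.202 and 0.112) and with miR-372 (0.273, 0.614 and 0.451) and for miR-133a with miR-372 (0.167, 0.300 and 0.137). They were not found for the other pairs in the comparisons with the mean of the miR-302a-seed groups, which were left unpaired. The block changed no member call in those comparisons. No comparison with the empty vector met the limit.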

Additional observations from a re-analysis of the deposited data

Results flagged for a closer look

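Differences between miRNAs of the same batch, tested directly by edgeR's quasi-likelihood test, were called for 16 combinations of member and comparison, and are given as log2 differences. Between miR-1 and miR-122 they were -0.86 for ETS1, -0.54 for ETV4, -0.52 for FLI1, -0.22 for ELK4 and 0.13 for ETS2. The log2 fold changes of ETS1 against empty vector were -0.62 with miR-1 and 0.25 with miR-122, the latter not called.

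Between miR-133a and miR-155 they were 0.75 for ELK3 and 0.40 for ETV4. These are from the fit without a replicate block, and with the block ETV5 was called there as well (0.67, adjusted p = 0.0053). Against the mean of the 3 miR-302a-seed groups, miR-133a differed by -1.20 for FLI1, -0.63 for ETS1, 0.22 for ELK3, 0.65 for ETV4 and 1.32 for ETV5. Against the same mean, miR-155 differed by -1.22 for FLI1, -0.60 for ETS1, -0.53 for ELK3 and 0.67 for ETV5. For ETV5 the replicate 2 libraries stood high with miR-155 and with the miR-302a-seed miRNAs, and without miR-155 replicate 2 the miR-155 difference of ETV5 was 0.47 and no longer called (adjusted p = 0.19). Groups held 2 or 3 libraries, too few to test single libraries as outliers.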

How the results depend on the processing

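Over 1990 member values under alternatives, 0 called values changed direction, and 129 values that were called neither before nor after changed sign. Of the 16 member calls against empty vector 8 remained without each library in turn, and of the 16 between miRNAs 11. The members called moved by over 1.5 times under these settings: with miR-1, 1 by DESeq2; with miR-133a, 2 by DESeq2, the likelihood ratio test or no filter, and 3 with only the groups compared, with the replicate block or without the 4 replicate 2 libraries (a setting added after seeing the data, whose count includes ETV5, by which those libraries were chosen); with miR-372, 2 with only the groups compared. Over single libraries left out, members called ranged from 1 to 2 with miR-1, 1 to 2 with miR-122, 2 to 4 with miR-372, 1 to 2 with miR-373, 3 to 4 between miR-1 and miR-122 (5 with every library) and 1 to 2 between miR-133a and miR-155. In batch 1 the lone library left in a group was assumed to vary like the other groups. The cause of these changes was not tested.

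The replicate block, in comparisons whose numbers pair no libraries, made ETV4 (0.41) and ETV5 (0.54) called with miR-133a and ETV5 called with miR-302a (-0.86) and miR-373 (-0.73), and left ETS2 between miR-1 and miR-122 uncalled (0.13). It called 0 members between miR-302a and miR-372. Without 7mer-A1 matches, 1 member matched miR-122 and 2 matched miR-155. By Spearman correlation 1 of the 3 genes named remained for FLI1 and 1 for ETS1. Depth limited FLI1 most, at 56 to 460 counts a library.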
